A study of Rattus norvegicus with 119 samples.

Results

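Enpp2, Col4a5 and Anxa1 are 3 genes of the 32662 counted in this series that were examined for their higher level in urethra than in the neighbouring ventral mesenchymal pad (VMP) of the newborn rat. Enpp2 and Col4a5 were taken by their Ensembl identifiers, ENSRNOG00000004089 and ENSRNOG00000018951, and Anxa1 by its symbol, which the study's table of differential transcripts pairs with ENSRNOG00000017469. All 3 were counted in every library and all 3 passed the filter on low counts in both bulk assays. They were picked as genes of the urethra with results of these data known, so their direction between the tissues is a description and supports nothing by itself. In the Rnor_6.0 build that the files use, Enpp2 lies on chromosome 7 (94480396 to 94563001), Col4a5 on chromosome X (112769645 to 112983685) and Anxa1 on chromosome 1 (237893966 to 237910012).

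The samples came from female Wistar rats on postnatal day 0, and the labels name no treatment, transgene or deleted allele in either group. The VMP is a pad of mesenchyme beside the urethra that can induce prostate growth, and the SU samples held the adjacent urethra with its smooth muscle, stroma and epithelium. Each tissue gave 1 Tag-seq library from pooled microdissected tissue, 1 RNA-seq library from a pool of collagenase-dissociated cells, and single cells caught on a Fluidigm C1 chip, 49 from VMP and 66 from SU. The cells had passed a strainer that held back epithelium and clumps, so the assays did not sample the same mixture. The bulk libraries held 4397699 to 8215177 counts on genes, and the cells 199849 to 1488320. The median cell had 614376 counts in VMP and 631065 in SU. Because the animals were pooled and each tissue had 1 library per assay and 1 pool of cells, no test between the tissues over animals was possible, the labels do not tell capture chip and tissue apart, and cells of a pool are not replicates of a tissue.

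The 3 genes encode proteins that act at or outside the cell surface by separate routes. Enpp2 encodes autotaxin, a secreted lysophospholipase D that makes lysophosphatidic acid from lysophosphatidylcholine in the extracellular fluid, and the lipid then acts on G protein-coupled receptors of the Lpar family until it is degraded by lipid phosphate phosphatases. Col4a5 encodes a chain of type IV collagen, the network-forming collagen of basement membranes, which in smooth muscle basement membranes is built with the chain encoded by the neighbouring gene Col4a6. Anxa1 encodes annexin A1, a calcium-dependent phospholipid-binding protein known for limiting inflammation and for binding S100 proteins.

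Upstream sequence is shown for the genes with an entry in the RefSeq promoter table (GRCr8 build), because the 3 genes shared a direction between the tissues and because Col4a5 and Col4a6 start close to each other on opposite strands. Anxa1, Col4a5 and Col4a6 had an entry. The windows start 250 bases before the listed start site and end at that site for Anxa1, or at the edge of the annotated gene for Col4a5 (142 bases) and Col4a6 (207 bases). The listed start of Anxa1 lies inside a longer annotated transcript, so its window is not outside the annotated gene. They are written 5′ to 3′ on the strand of the gene, at chr1:227303733-227303982 (minus strand), chrX:109907109-109907250 (plus strand) and chrX:109905988-109906194 (minus strand). Capitals mark matches on either strand to the motifs searched, which were TATAAA (the TATA box), CCAAT (the CCAAT box) and GGGCGG (the GC box).
Anxa1: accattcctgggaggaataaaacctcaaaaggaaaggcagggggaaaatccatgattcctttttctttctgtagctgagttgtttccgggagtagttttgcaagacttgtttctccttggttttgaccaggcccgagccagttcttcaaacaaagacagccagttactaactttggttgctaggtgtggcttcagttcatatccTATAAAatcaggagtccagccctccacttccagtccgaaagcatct
Col4a5: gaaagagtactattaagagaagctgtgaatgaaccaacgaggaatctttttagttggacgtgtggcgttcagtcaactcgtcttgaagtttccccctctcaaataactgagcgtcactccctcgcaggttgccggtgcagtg
Col4a6: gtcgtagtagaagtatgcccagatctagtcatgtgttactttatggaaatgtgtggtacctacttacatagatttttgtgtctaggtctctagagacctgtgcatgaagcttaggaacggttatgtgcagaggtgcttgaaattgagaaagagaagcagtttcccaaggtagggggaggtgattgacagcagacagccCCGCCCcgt

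The Anxa1 window held TATAAA beginning 46 bases before the start, a motif present in 12.9% of all 33469 promoter windows of the same length and place. The Col4a6 window held GGGCGG on the other strand, beginning 52 bases before the start. Of all windows cut in the same way, 25.2% held this motif on either strand at any place. None of the motifs was found in the 142 bases of the Col4a5 window, where 7.35% of all windows held TATAAA, 20.2% CCAAT and 15.4% GGGCGG. The share of G and C was 45.2% for Anxa1, 47.9% for Col4a5 and 46.4% for Col4a6, below the medians of 51.2%, 50.0% and 50.7% over all windows of those lengths. The listed start sites of Col4a5 and Col4a6 were 1415 bases apart.

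Enpp2 was higher in SU than in VMP in each assay, and the size of the difference varied most for this gene. Tag-seq, which counts 1 short tag per transcript and does not depend on length, held 509 Enpp2 counts in VMP and 1961 in SU. These are 64.7 counts per 1000000 counts on genes (CPM, 95% Poisson interval 59.2 to 70.5) in VMP and 239 CPM (228 to 250) in SU. After TMM scaling, a trimmed mean of M values, the log2 ratio of SU over VMP was 1.99 (counting interval 1.85 to 2.14), a 3.98-fold difference. In RNA-seq of dissociated cells the counts were 295 in VMP and 16095 in SU, or 67.1 and 2297 CPM, a log2 ratio of 5.30 (5.14 to 5.48) and a 39.5-fold difference. The VMP levels of both assays were close, at 64.7 and 67.1 CPM, while the SU level was 9.62 times higher in RNA-seq than in Tag-seq.

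Col4a5 differed by less than Enpp2 in both bulk assays. Tag-seq held 465 counts in VMP and 1511 in SU, or 59.1 CPM (53.8 to 64.7) and 184 CPM (175 to 193), with a log2 ratio of 1.75 (1.60 to 1.90), a 3.36-fold difference. RNA-seq held 107 counts in VMP and 1567 in SU, or 24.3 CPM (19.9 to 29.4) and 224 CPM (213 to 235), with a log2 ratio of 3.40 (3.13 to 3.70), a 10.6-fold difference. Here the SU level was nearly the same in both assays, 1.22 times higher in RNA-seq, and the VMP level was lower in RNA-seq, at 0.412 times that in Tag-seq.

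Anxa1 had few tags in the intact tissue and many reads in the dissociated cells of both tissues. Tag-seq held 55 counts in VMP and 385 in SU, or 6.99 CPM (5.26 to 9.10) and 46.9 CPM (42.3 to 51.8), with a log2 ratio of 2.85 (2.45 to 3.29), a 7.19-fold difference. RNA-seq held 333 counts in VMP and 7629 in SU, or 75.7 CPM (67.8 to 84.3) and 1089 CPM (1064 to 1113), with a log2 ratio of 4.05 (3.90 to 4.22), a 16.6-fold difference. The level was 10.8 times higher in RNA-seq than in Tag-seq for VMP and 23.2 times higher for SU. Tag-seq and RNA-seq differ in dissociation, in the cells kept and in library chemistry, and the part of each in these gaps cannot be told apart.

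**Figure D1:**
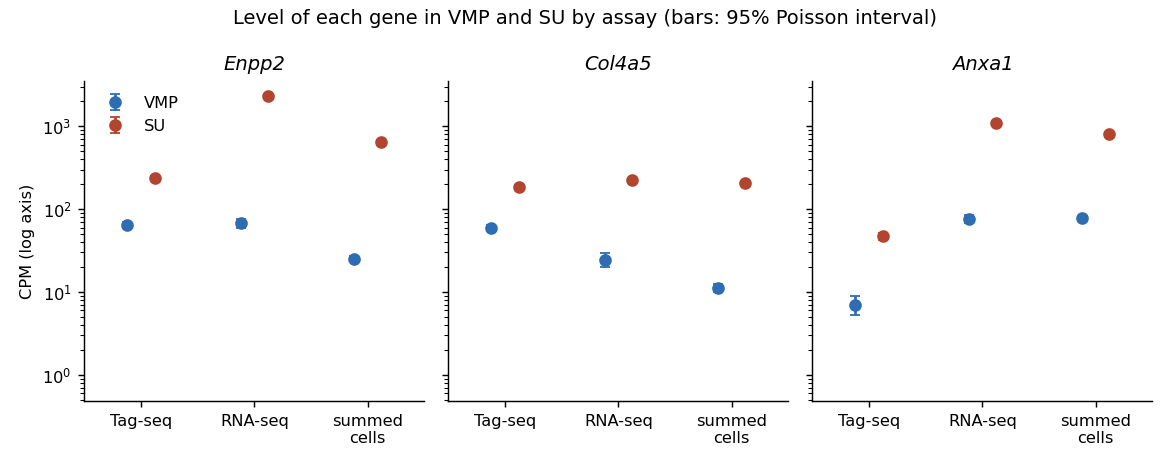
Level of each gene in CPM on a log axis for Tag-seq, RNA-seq and the summed single cells, with VMP in blue and SU in red, and 95% Poisson intervals that cover counting error only. SU lies above VMP for every gene in every assay, with the widest gap for Enpp2 in RNA-seq (67.1 against 2297 CPM).

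Each of the 3 genes was called differentially expressed in both assays by NOISeq as it is run without replicates, where q ranks a gene against simulated technical noise and is not a p-value. In Tag-seq q was 0.968 for Enpp2, 0.953 for Col4a5 and 0.993 for Anxa1, against a limit of 0.9, and 13.2% of the 12191 genes tested were called higher in SU. In RNA-seq q was 1.0 for Enpp2, 0.998 for Col4a5 and 0.9999 for Anxa1, and 11.2% of the 17527 genes tested were called higher in SU. Of the 11273 genes tested in both assays, 3.07% were called higher in SU in both, as these 3 were. Among genes with at least 50 counts in the higher tissue, a ratio as high as that of Enpp2 was seen for 7.94% of 8804 genes in Tag-seq and 1.34% of 11099 in RNA-seq. For Col4a5 these shares were 9.95% and 2.60%, and for Anxa1 4.49% and 1.96%. Each gene stood nearer the top of the ratios in RNA-seq than in Tag-seq. In these bulk libraries fewer cells that make a transcript and less transcript per cell cannot be told apart.

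When the 4 bulk libraries were fitted together, with a term for the assay, the log2 ratios were 3.68 for Enpp2, 2.60 for Col4a5 and 3.50 for Anxa1. Their adjusted p-values from edgeR's quasi-likelihood test with Benjamini-Hochberg adjustment were 0.000326, 0.00368 and 5.46e-05, and 1.3% of the 18445 genes tested were called higher in SU. The spread in this fit is the disagreement of 2 assays on the tissue difference, with 1 residual degree of freedom, and not the spread between animals. It is also moderated by the spread of all genes tested. The small p-values therefore do not mean that the assays agreed on a gene, and for Enpp2 the log2 ratios were 1.99 in Tag-seq and 5.30 in RNA-seq.

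Compared per kilobase of annotated transcript, the RNA-seq level in SU was highest for Enpp2 (866 CPM per kb), then Anxa1 (769) and Col4a5 (34.5). In VMP the order was Anxa1 (53.5 CPM per kb), Enpp2 (25.3) and Col4a5 (3.76). In the summed single cells Anxa1 was highest in both tissues, at 571 CPM per kb in SU and 55.2 in VMP, followed by Enpp2 (245 and 9.53) and Col4a5 (32.2 and 1.75). In Tag-seq, where CPM needs no length, the order in SU was Enpp2, Col4a5 and Anxa1, with Enpp2 at abundance rank 867 and Anxa1 at rank 3763. The Tag-seq levels of Enpp2 and Col4a5 in VMP had overlapping intervals, 59.2 to 70.5 and 53.8 to 64.7 CPM, so these neighbours in the order did not differ beyond counting error. Anxa1 was thus lowest of the 3 by tags in tissue and highest per kilobase in single cells.

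In the single cells the genes were read in nearly every SU cell and in fewer VMP cells. Reads of Enpp2 were found in 65 of 66 SU cells (98.5%, Clopper-Pearson 95% interval 91.8 to 100.0%), of Col4a5 in 66 of 66 (94.6 to 100.0%) and of Anxa1 in 64 of 66 (97.0%, 89.5 to 99.6%). In VMP the shares were 23 of 49 cells for Enpp2 (46.9%, 32.5 to 61.7%), 20 for Col4a5 (40.8%, 27 to 55.8%) and 23 for Anxa1 (46.9%, 32.5 to 61.7%). Most of these VMP cells held only 1 to 4 reads. At 10 reads or more, 6 VMP cells remained for Enpp2 (12.2%, 4.63 to 24.8%), 5 for Col4a5 (10.2%, 3.40 to 22.2%) and 7 for Anxa1 (14.3%, 5.94 to 27.2%), against 53, 53 and 62 SU cells. With every cell thinned to 199849 counts, the shares with a read were 86.4%, 97.0% and 97.0% in SU and 26.5%, 24.5% and 32.7% in VMP. Intervals cover counting error over cells of 1 pool.

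Summed over cells, the log2 ratio of SU over VMP was 4.68 for Enpp2 (28678 against 753 reads), 4.21 for Col4a5 (9233 against 337) and 3.37 for Anxa1 (35694 against 2330). A log2 ratio of at least 1.5 was seen for 20.9% of the 14023 genes with at least 50 reads in the higher tissue. A ratio as high as that of Enpp2 was seen for 8.32% of them, of Col4a5 for 9.04% and of Anxa1 for 11.1%. The order of the genes by ratio differed among assays, with Anxa1 first in Tag-seq and last in the summed cells.

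Enpp2 reached the highest level of the 3 in a single SU cell. Its level ran from 0 to 3621 CPM with a median of 243 CPM, quartiles of 33.1 and 921 CPM, and a mean of 671 ± 894 CPM (SD, n = 66 cells). In 16 SU cells it was at 1000 CPM or more and in 12 it was under 10 CPM. The 8 cells with the most reads held 50% of all Enpp2 reads of the SU cells.

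Col4a5 was read in every SU cell but seldom at a high level. It ran from 0.762 to 1706 CPM with a median of 143 CPM, quartiles of 19.6 and 274 CPM, and a mean of 229 ± 320 CPM (SD, n = 66 cells). Only 2 SU cells reached 1000 CPM, and 9 were under 10 CPM.

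Anxa1 was the most even of the 3 in SU cells, with a coefficient of variation of 0.977 against 1.33 for Enpp2 and 1.39 for Col4a5. Its level ran from 0 to 3228 CPM with a median of 523 CPM, quartiles of 138 and 1388 CPM, and a mean of 779 ± 762 CPM (SD, n = 66 cells). It was at 1000 CPM or more in 20 SU cells and under 10 CPM in 3.

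**Figure D2:**
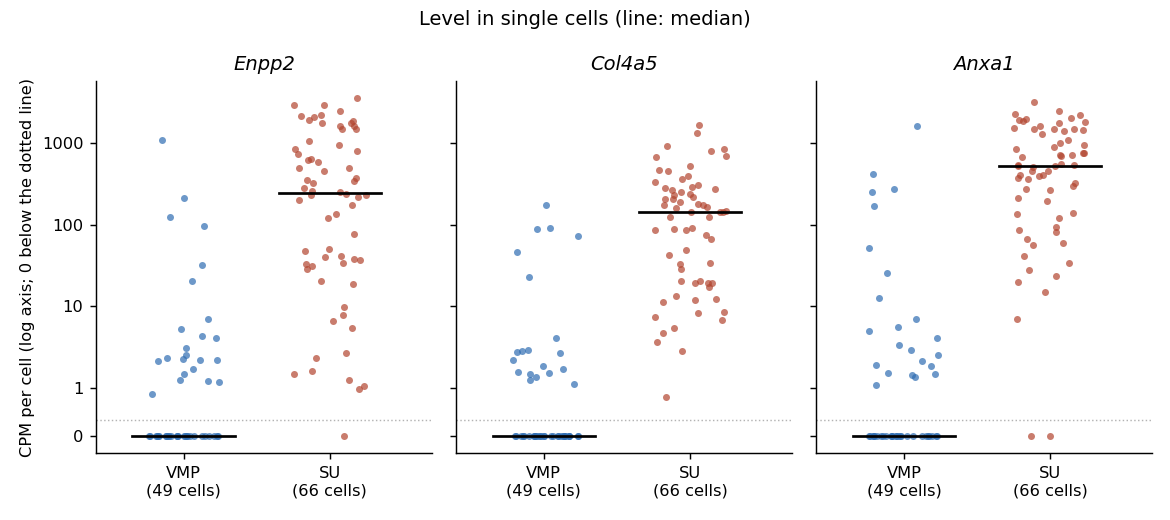
Level of each gene in every VMP cell (blue, 49 cells) and SU cell (red, 66 cells), in CPM on a log axis with cells at 0 drawn below the dotted line and the median as a black line. The median VMP cell is at 0 for each gene, and for each gene 1 VMP cell lies above the SU median.

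The VMP cells with at least 10 reads were few, and 11 of the 14 reached that number for a single gene. Lists this short share few cells for unrelated genes too, and this overlap was not tested. For Enpp2 the cells were cell 33 with 516 reads, 65 with 80, 5 with 65, 10 with 38, 23 with 17 and 66 with 13. Cell 33 alone held 68.5% of all Enpp2 reads in VMP cells, and at 1087 CPM it was the only VMP cell above the SU median of 243 CPM. For Col4a5 they were cell 65 with 148 reads, 13 with 57, 73 with 48, 31 with 45 and 5 with 14, and cell 65 held 43.9% of the reads. Its level of 177 CPM was above the SU median of 143 CPM.

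For Anxa1 the VMP cells were cell 44 with 1415 reads, 89 with 364, 24 with 182, 72 with 174, 31 with 105, 65 with 43 and 28 with 21. Cell 44 held 60.7% of the reads and reached 1639 CPM, more than in 55 of the 66 SU cells. Cells with at least 10 reads held 96.8% of the Enpp2 reads, 92.6% of the Col4a5 reads and 98.9% of the Anxa1 reads of VMP. Without the richest VMP cell the summed log2 ratio moved from 4.68 to 6.32 for Enpp2 (cell 33), from 4.21 to 5.00 for Col4a5 (cell 65) and from 3.37 to 4.67 for Anxa1 (cell 44).

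At 10 reads or more, all 3 transcripts were present together in 43 of 66 SU cells (65.2%) and in 1 of 49 VMP cells (2.04%), cell 65. In VMP, 11 cells held a single one of them, 2 held a pair, and 35 (71.4%) held none. In SU, 18 cells held a pair, which was Enpp2 with Anxa1 in 9 and Col4a5 with Anxa1 in 9, and never Enpp2 with Col4a5 alone. Anxa1 reached 10 reads in 62 of the 66 SU cells, so few cells could hold that last pair, and its absence shows no exclusion. SU cells 95 and 96 held fewer than 10 reads of each gene, with 1 Enpp2 and 3 Col4a5 reads in cell 95 and 1 Col4a5 read in cell 96. Cells 95 and 96 had 818353 and 1313232 counts on genes, above the SU median of 631065. Why they held so few reads of these genes was not tested.

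The summed level of 15 VMP genes that the study names, among them Fgf10, Ptn and Rspo2, is given beside these cells. This list was added after values were seen. It had a median of 5248 CPM over VMP cells (346 to 14800) and 695 CPM over SU cells (30.9 to 5049). In the 14 VMP cells with at least 10 reads of any of the 3 genes its median was 3476 CPM (1170 to 8044), and in the 35 others 5381 CPM (346 to 14800), so the ranges overlapped. By gene, the medians were 4928 CPM in the 6 Enpp2 cells against 5248 CPM in the 43 others, 2128 against 5254 CPM for Col4a5 (5 and 44 cells), and 2685 against 5293 CPM for Anxa1 (7 and 42 cells). VMP cell 33, richest in Enpp2, was at 5256 CPM, cell 65 at 1425 CPM and cell 44 at 2037 CPM. The richest Enpp2 cell was thus at the VMP median and the richest Col4a5 and Anxa1 cells were below it.

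Levels of other cell types' markers are given beside these cells. The 13 skeletal muscle markers were all matched to the files, and 5 of them were at 0 in all VMP cells. The 13 summed to 1312 CPM in VMP cell 44, 1043 CPM in cell 24, 580 CPM in cell 72 and 435 CPM in cell 65. In these cells Myod1 had 0, 0, 1 and 0 reads, Myog had 0, and Chrna1 had 2, 3, 5 and 3. The 13 summed to 19.5 CPM or less in the other 3 Anxa1 cells, and to a median of 14 CPM (0 to 1163) in the 42 VMP cells under 10 Anxa1 reads. Over the 5 Col4a5 cells the median was 28.9 CPM (6.45 to 533, the highest in cell 73), against 14.6 CPM (0 to 1312) in the 44 others. The 4 matched endothelial markers of 9 (Cdh5, Kdr, Tie1, Emcn) had a median of 358 CPM (3.31 to 2201) in the 6 Enpp2 cells and 46.8 CPM (1.07 to 3222) in the 43 others. Cell 33, richest in Enpp2, was at 40.04 CPM. In the 5 Col4a5 cells their median was 29.3 CPM (3.31 to 3222) and in the 44 others 48.98 CPM (1.07 to 2342). Kdr alone made most of the summed endothelial level in Enpp2 cells 66 (2201 CPM, 1414 Kdr reads) and 10 (1086 CPM, 295 Kdr reads). It made little of that in cell 65 (669 CPM, 36 Kdr reads). VMP cell 78, under 10 reads for each of the 3 genes, had 2795 Kdr reads. The summed level is thus in part that of 1 gene. The 16 matched epithelial markers of 18 had medians of 2.89 CPM in VMP and 1.49 CPM in SU cells, with 11 and 9 of them at 0 in all cells. In VMP they were highest in cell 24, at 269 CPM. Their median was 1.16 CPM (0 to 269) in the 7 Anxa1 cells and 2.96 CPM (0 to 229) in the 42 others. The part of these cell types in the VMP reads was not tested. The 6 matched mesenchymal markers of 8 (Col1a1, Col3a1, Dcn, Lum, Pdgfra, Pdgfrb) were at 3687 to 25880 CPM in every VMP cell and 5115 to 60940 CPM in every SU cell. Their median was 7180 CPM in the 14 VMP cells with at least 10 reads of any of the 3 genes and 12250 CPM in the 35 others.

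Within SU the 3 genes did not rank the cells alike. Spearman's correlation over 66 SU cells was -0.11 for Enpp2 and Col4a5, 0.22 for Enpp2 and Anxa1, and 0.08 for Col4a5 and Anxa1. With counts normalized to the spike-ins these were -0.04, 0.35 and 0.20. They are descriptions over cells of 1 pool that differ in depth, and the correlation with depth was -0.14 for Enpp2, -0.25 for Col4a5 and 0.07 for Anxa1. Of the 10 highest cells of each gene, Enpp2 shared 2 with Col4a5 and 2 with Anxa1, Col4a5 shared 1 with Anxa1, and no cell was on all 3 lists. Lists of 10 out of 66 cells share few cells for unrelated genes too, and this overlap was not tested. SU cell 41, the highest for Col4a5 at 1706 CPM, had 7.73 CPM of Enpp2 and 962 CPM of Anxa1. SU cell 34, the highest for Anxa1 at 3228 CPM, had 13.4 CPM of Col4a5 and 280 CPM of Enpp2. SU cell 82, the highest for Enpp2 at 3621 CPM, was also the third for Col4a5 at 933 CPM.

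**Figure D3:**
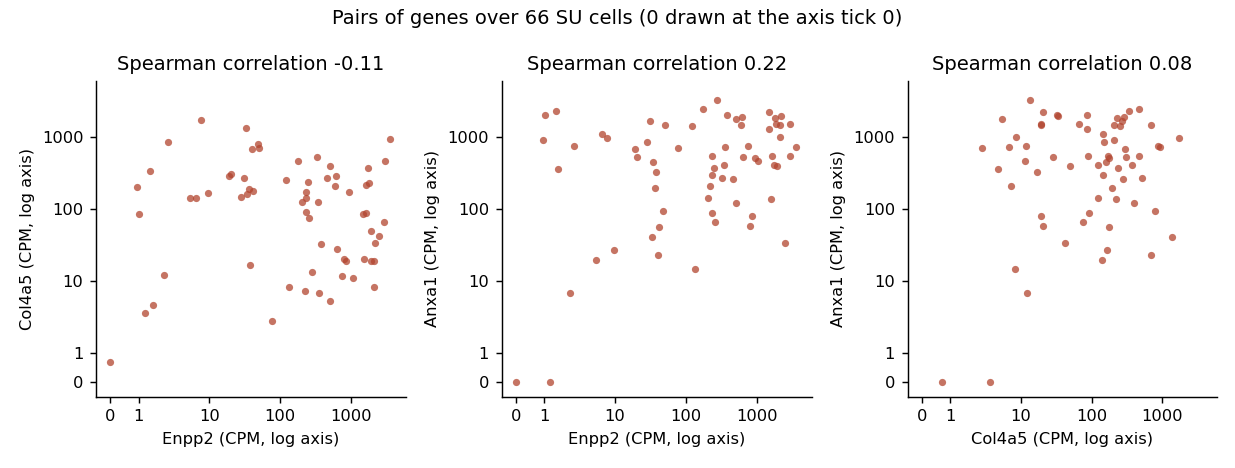
The 3 pairs of genes over the 66 SU cells, each point a cell, with levels in CPM on log axes and 0 drawn at the tick marked 0. The points spread over the whole range in each panel, and the correlation is -0.11, 0.22 and 0.08.

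The genes whose levels most resembled each member over the SU cells were sought among the 8144 other genes with reads in at least 20 SU cells, of which 1229 had a symbol. For Enpp2 the highest Spearman's correlation of all was with Jag1, a Notch ligand (0.58). It was followed among genes with a symbol by Gstm1, a glutathione transferase (0.49), Aldh1a2, which makes retinoic acid (0.44), Gpc4, a glypican (0.42), and Lum, the proteoglycan lumican (0.42). Jag1 was read in all 66 SU and 49 VMP cells, at summed levels of 1182 CPM in SU and 239 CPM in VMP.

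For Col4a5 the most alike among genes with a symbol, which ranked between 7 and 23 among all genes, were Sfrp1, a secreted Wnt inhibitor (0.42), Adcy4, an adenylyl cyclase (0.41), Vcan, the proteoglycan versican (0.40), the gene NEWGENE_1308171 (0.38) and Eln, elastin (0.38). Vcan and Eln encode extracellular matrix and were at 797 and 1203 CPM in summed SU cells. Sfrp1 was lower in SU than in VMP cells, at 8.10 against 45.7 CPM, while Col4a5 was higher in SU. For Anxa1 the most alike with a symbol, ranked between 2 and 32 among all genes, were Pdgfra, a growth factor receptor of mesenchyme (0.47), Bmp2, a secreted bone morphogenetic protein (0.44), Lum (0.41), S100a6, a calcium-binding protein (0.40), and Htra3, a secreted protease (0.37). Lum was on the lists of both Enpp2 and Anxa1, and with spike-in normalized counts its correlation with Anxa1 was 0.61, above the 0.60 of Pdgfra. Each list is the top of many comparisons, so its correlations are high by selection.

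Type IV collagen chain Col4a6, whose gene neighbours Col4a5, was read in far fewer cells. In Tag-seq it had 4 counts in VMP and 25 in SU, with q of 0.889, under the limit. In RNA-seq it had 30 and 400 counts, a log2 ratio of 3.25 (2.74 to 3.86) with q of 0.997, close to the 3.40 of Col4a5. It had reads in 14 SU cells, 11 of them with 17 to 272 reads, and 1 read in 1 VMP cell. The 11 SU cells had a median of 110 Col4a5 reads (3 to 729) at a median depth of 818353, and the 52 SU cells without a Col4a6 read had 57.5 (1 to 1325) at 589410. SU cell 95, with 3 Col4a5 reads and none of Anxa1, held 53 Col4a6 reads. Spearman's correlation of the 2 collagen genes over SU cells was 0.07. In the Rnor_6.0 annotation used for counting, the gene model of Col4a6 (ENSRNOG00000056772) spans 68176 bases and ends 295822 bases from Col4a5, which is wider than the distance between their start sites in GRCr8.

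**Figure D4:**
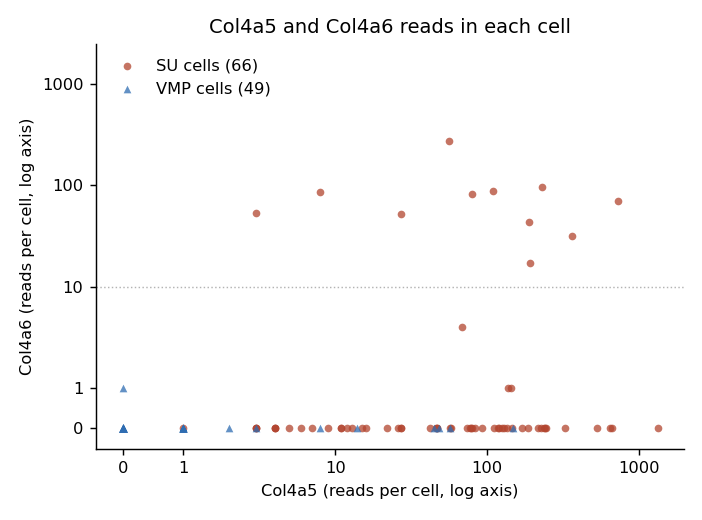
Reads of Col4a5 and Col4a6 in each SU cell (red circles, 66) and VMP cell (blue triangles, 49), on log axes with 0 at the tick marked 0 and a dotted line at 10 Col4a6 reads. The 11 SU cells above the line span 3 to 729 Col4a5 reads.

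Of 13 genes of lysophosphatidic acid production, reception and breakdown, 4 besides Enpp2 itself could be matched to identifiers. Lpar1, a receptor for the lipid, differed little in Tag-seq (log2 ratio 0.07, interval -0.06 to 0.20) and higher in SU in RNA-seq (1.83, q 0.944). It was read in 65 of 66 SU and 35 of 49 VMP cells, with a summed log2 ratio of 0.37. Pla1a, a phospholipase that releases lysophosphatidylserine, had 4 counts in each tissue by Tag-seq, but 27 counts in VMP and 391 in SU by RNA-seq (3.37, q 0.998), and 10 reads or more in 17 SU cells and 1 VMP cell. Among the phosphatases, Plpp3 was called lower in SU in Tag-seq (-1.72, q 0.951) and was near level in RNA-seq (-0.35) and in cells (-0.14). Plpp2 was higher in SU tissue (129 against 2818 tags, log2 ratio 4.49), was at 0 counts in VMP and 33 in SU in RNA-seq (at least 7.97-fold higher), and had 1 read in all SU cells together and 283 in VMP cells, 282 of them in 1 cell. In Tag-seq, where Pla1a was not tested, 1 of the 3 genes tested was called higher and 1 lower in SU, beside 13.2% of all genes called higher. In RNA-seq 3 of 4 were called higher and 0 lower, beside 11.2% of all genes called higher. Over all genes, 1108 of 12191 were called lower in SU in Tag-seq and 1736 of 17527 in RNA-seq.

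Of 26 basement membrane genes 5 were matched besides Col4a5. In Tag-seq, where Itga2 was not tested, 1 of 4 was called higher and 0 lower in SU, beside 13.2% of all genes called higher. In RNA-seq 4 of 5 were called higher and 1 lower, beside 11.2% of all genes called higher and 1736 of 17527 called lower. The laminin chain Lama5 was called higher in SU in both assays, with log2 ratios of 2.24 by RNA-seq and 3.45 by Tag-seq. The laminin chain Lamc3 had 13 tags in SU and 0 in VMP (at least 4.48-fold higher) and a ratio of 4.80 in RNA-seq. Lama5 was read in 21 SU cells and Lamc3 in 4. Nid1, encoding nidogen, which links laminin to type IV collagen, was lower in SU by tags (-0.56, q 0.743, not called) and called higher by RNA-seq (1.66, q 0.935), and was read in 66 of 66 SU and 36 of 49 VMP cells with a summed log2 ratio of 3.12. Itga2, a collagen-binding integrin chain, was called lower in SU by RNA-seq (-2.93) on 102 counts in VMP and 18 in SU, and 188 reads came from 1 VMP cell.

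Of 16 genes of other annexins and their partners, 3 were matched besides Anxa1, all of them annexins. By Tag-seq 3 of 3 were called higher in SU, beside 13.2% of all genes, and by RNA-seq 1 of 3, beside 11.2%. Anxa3 had a Tag-seq log2 ratio of 2.69 and an RNA-seq ratio of -0.22 (-0.50 to 0.07). Anxa4 had ratios of 3.38 and 0.68, the latter not called. Anxa8 had 74 tags in VMP and 2242 in SU (4.96), and in RNA-seq 0 counts in VMP and 82 in SU (at least 19.8-fold higher). In the cells Anxa3 was read in 15 SU cells, Anxa4 in 26 and Anxa8 in 0 of 66, while Anxa1 was read in 64. With a limit of 3 counts for a count of 0, the cells with an Anxa8 read could be up to 4.55%, and the Clopper-Pearson limit is 5.44%. The 16 matched epithelial markers were at 9879 CPM in SU and 613 CPM in VMP in Tag-seq, and at 262 and 27.1 CPM in RNA-seq. The part of epithelium in the tag counts of these annexins was not tested. The matched members of these 3 lists all come from the study's tables of differential transcripts, so their counts do not describe the lists as a whole.

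**Figure D5:**
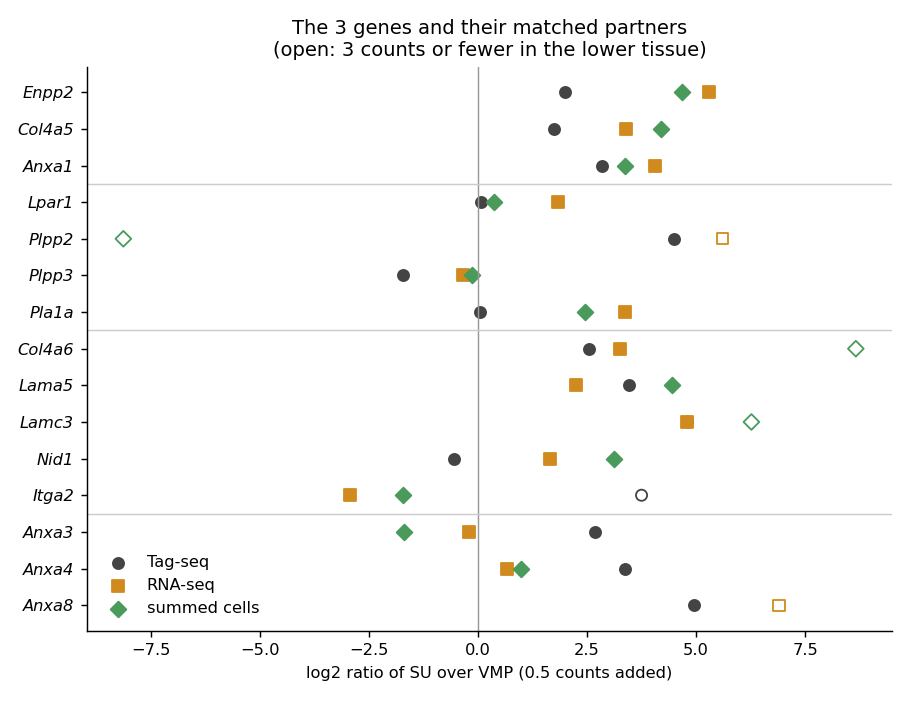
Log2 ratio of SU over VMP, with 0.5 counts added, in Tag-seq (circles), RNA-seq (squares) and summed cells (diamonds) for the 3 genes and the matched genes of the lysophosphatidic acid, basement membrane and annexin lists, with open symbols where the lower tissue had 3 counts or fewer. Enpp2, Col4a5 and Anxa1 lie right of 0 in all assays, while Anxa3 is at -0.22 in RNA-seq and at 2.69 in Tag-seq. The summed-cell value of Anxa8 is left out, since both tissues had at most 1 read.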

How the data were processed

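Gene-level read counts were compared between VMP and SU tissue, dissociated cells and single cells. The authors deposited counts per Ensembl gene without normalization. Their Tag-seq reads were cut down to the tag, mapped on Rnor_6.0 by Bowtie2 and counted by summarizeOverlaps. For single cells they used Trimmomatic 0.33, TopHat, and Picard 1.128 to remove duplicates. No step was given apart for the bulk RNA-seq, and HTSeq, SAMtools and FastQC are also listed in the submitters' processing notes. The 95 spike-in rows stayed out of library sizes and took a median of 13.5% of counts in VMP and 11.4% in SU cells. The deposited cells number 49 and 66, a different split between tissues than the study's methods give for sequenced cells, and no cell was removed here. After its quality control the study reports as many VMP cells as are deposited, but fewer SU cells. The SU cells counted here therefore include some that it left out, and the labels do not tell which.

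Bulk libraries were scaled by TMM. Genes that exceeded 1 CPM in 1 or both libraries were called with a reimplementation of NOISeq without replicates, which simulated 5 libraries for each tissue (20% of its depth, variability 0.02) and replaced 0 by 0.5 counts. The limit on q was 0.9. Log2 ratios add 0.5 counts. Summed cells were scaled by total counts. Intervals are at 95%, exact, and cover counting error only. A fold against 0 used a floor of 3 counts per library. The 4 bulk libraries were also fitted with edgeR 4.0.16, and DESeq2 1.42.0 as an alternative, at an adjusted p of 0.05, in R 4.3.3. The rest used Python 3.11.15, numpy 2.4.6, pandas 2.3.3, scipy 1.17.1 and matplotlib 3.10.9.

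Methods were tested on simulated data with 200 genes changed 8-fold. NOISeq recovered 100.0% of them for both bulk assays, and called 0 and 2 other genes in Tag-seq and RNA-seq. These counts were drawn with counting noise alone, the kind that NOISeq itself simulates, so a low number of other calls was built in. It gives no rate of false calls for the real libraries. Recovery of differences under 8-fold was not tested. Enpp2, Col4a5 and Anxa1 differed 3.98-fold, 3.36-fold and 7.19-fold in Tag-seq, and 39.5-fold, 10.6-fold and 16.6-fold in RNA-seq. Over the 4 libraries edgeR recovered 100.0% and called 5 others, and DESeq2 recovered 100.0% and called 247 others, so DESeq2 counts are loose here. In this simulation each change was the same in both assays. False calls where the assays disagree on a gene were therefore not tested.

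The members and the gene lists were chosen with earlier results of these data known. The text names the 3 members, all matched genes of the 3 pathway lists but 1, which is not reported here and stays out of their counts, the collagen partner Col4a6, the 5 genes with a symbol most like each member over SU cells, and markers where a list is discussed. S100a11, a planned partner of Anxa1, and proliferation markers had no matched identifier. Symbols came from the study's tables of differential transcripts, which pair 2995 IDs in the parts used here. The lists for smooth muscle (3 of 11), leukocytes (1 of 7) and Schwann cells (1 of 6) matched too few genes to be used. The columns of fold changes and q-values in those tables were not used.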

Additional observations from a re-analysis of the deposited data

How the results depend on the processing

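All 3 genes stayed called in both bulk assays under each of the 6 alternatives tried per assay, namely total count scaling, DESeq2 size factors, q of at least 0.95, a log2 ratio of at least 1.5 as well, no filter on low counts, and 0 counts set to 5. They also stayed called over the 4 bulk libraries with DESeq2 and without the filter. In these 14 alternatives the count stayed at 3. Of the 69 other values, 41 stayed inside the 95% interval of the value reported and 28 fell outside it, and no ratio of SU over VMP changed direction.

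RNA-seq log2 ratios became 5.10 (Enpp2) and 3.84 (Anxa1) with total count scaling, and 5.77 (Enpp2), 3.87 (Col4a5) and 4.52 (Anxa1) with no normalization. Ratios of summed cells became 4.82 (Enpp2) and 3.50 (Anxa1) with spike-in scaling, and 4.34, 4.41 and 3.73 for Enpp2, Col4a5 and Anxa1 with equal weight of cells. Without the richest SU cell they were 4.01 (Col4a5, cell 41) and 3.28 (Anxa1, cell 34). Without the richest VMP cell they were 6.32 (Enpp2), 5.00 (Col4a5) and 4.67 (Anxa1), the only choice that moved a ratio by over 1.5 times in fold. Shares of SU cells became 86.4% (Enpp2) and 87.9% (Col4a5) at 5 reads, 80.3% for both at 10 reads, and 86.4% for Enpp2 after thinning. Shares of VMP cells became 12.2%, 12.2% and 14.3% at 5 reads, 12.2%, 10.2% and 14.3% at 10 reads for Enpp2, Col4a5 and Anxa1, and 26.5% (Enpp2) and 24.5% (Col4a5) after thinning. Fewer counted cells follow from a higher read limit by construction. The cause of the other moves was not tested.

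Counts over all genes also depended on the settings. Genes called higher and lower in SU in Tag-seq numbered 1605 and 1108, against 938 and 324 at q of at least 0.95 and 1446 and 1354 with total count scaling. In RNA-seq they numbered 1966 and 1736, against 1071 and 831, and 1606 and 2262. Over the 4 libraries edgeR called 240 and 69, and DESeq2 142 and 55. No paired analysis was possible because the cell numbers in the labels tie no VMP cell to an SU cell and no test was made over cells. Leaving out 1 of the 4 bulk libraries leaves no residual degrees of freedom, so it gave no test.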
